A study of Mus musculus with 9 samples.

Results

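Genes of cholesterol and fatty acid synthesis were followed in R1E mouse embryonic stem cells carrying hairpins against Apela. The list held 29 genes, and each was represented by its brightest probe set with a single gene symbol in the platform annotation. Acat2 had none and was skipped, which left 28 of 19938 genes: 17 sterol enzymes, 6 fatty acid enzymes, and 5 genes of the SREBP system (Srebf1, Srebf2, Scap, Insig1 and the sterol carrier Stard4). The members were listed by function, with earlier results of these data known.

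All cells were R1E cells grown in 15% fetal bovine serum with 1000 units/ml of leukemia inhibitory factor, and no drug was applied. Lentivirus delivered a hairpin to every group: shLuc, directed at luciferase, which mouse cells lack, shApela_1 or shApela_2, each directed at Apela, which encodes a short secreted peptide. Each group had 3 Affymetrix arrays of total RNA, and the labels do not say whether they came from separate cultures, so p-values measure the spread between these arrays only, which may be technical. Values are log2 expression after RMA (robust multi-array average), so a difference of 1 is a doubling of signal.

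Cholesterol and fatty acids are both built from cytosolic acetyl-CoA. The mevalonate pathway turns it into farnesyl diphosphate, then squalene and lanosterol, and finally cholesterol, while Acly, Acaca and Fasn make palmitate, which Elovl6 lengthens and the Scd desaturases make monounsaturated. SREBP transcription factors control both branches: Scap carries their precursors from the endoplasmic reticulum to the Golgi for cleavage when sterols are low, and Insig proteins hold Scap back when sterols are high. Srebf2 is known mainly for sterol genes and Srebf1 for fatty acid genes, and Insig1 is itself a sensitive SREBP target. Serum brings lipoprotein cholesterol into such cultures.

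Promoters of 4 members are shown because the values below turn on these genes: Hmgcs1 was the 1 member whose window held the sterol element searched for, Cyp51 and Insig1 were among the members that varied most between arrays, and Acly had the smallest p of all members between the hairpins. Each run is the 250 bases before the RefSeq start (GRCm38.p6), 5′ to 3′ on the gene's strand. Capitals mark TCACNCCAC (a form of the sterol regulatory element), CCAAT (the box bound by NF-Y) or GGGCGG (the Sp1 box), read on both strands. Different motifs overlapped at 0 bases of these windows. The windows were chr13:119690101-119690350 (plus strand) for Hmgcs1, chr5:4104698-4104947 (minus) for Cyp51, chr5:28071162-28071411 (plus) for Insig1 and chr11:100528001-100528250 (minus) for Acly.
Hmgcs1: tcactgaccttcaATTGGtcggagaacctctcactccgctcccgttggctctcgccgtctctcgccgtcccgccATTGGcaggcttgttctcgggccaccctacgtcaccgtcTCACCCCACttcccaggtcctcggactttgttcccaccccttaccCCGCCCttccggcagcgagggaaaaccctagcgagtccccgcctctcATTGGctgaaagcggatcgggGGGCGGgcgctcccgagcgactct
Cyp51: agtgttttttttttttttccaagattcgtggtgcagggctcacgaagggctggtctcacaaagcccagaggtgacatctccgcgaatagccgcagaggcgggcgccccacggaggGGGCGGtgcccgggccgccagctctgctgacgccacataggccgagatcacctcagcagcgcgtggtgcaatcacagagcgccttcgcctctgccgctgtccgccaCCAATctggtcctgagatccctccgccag
Insig1: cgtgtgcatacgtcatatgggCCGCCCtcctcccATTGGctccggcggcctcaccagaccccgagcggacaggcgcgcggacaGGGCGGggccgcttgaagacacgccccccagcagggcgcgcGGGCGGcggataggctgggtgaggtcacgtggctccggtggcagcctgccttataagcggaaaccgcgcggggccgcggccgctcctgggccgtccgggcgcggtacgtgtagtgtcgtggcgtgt
Acly: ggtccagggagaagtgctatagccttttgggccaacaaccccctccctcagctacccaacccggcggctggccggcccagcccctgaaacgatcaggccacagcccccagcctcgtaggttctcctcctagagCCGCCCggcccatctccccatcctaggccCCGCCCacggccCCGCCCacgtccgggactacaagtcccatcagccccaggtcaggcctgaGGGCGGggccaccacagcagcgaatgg

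Of the 28 members, 22 had an entry among the RefSeq promoters, and Fdft1, Sqle, Fdps, Scd1, Scd2 and Stard4 had none. A gene was counted if any of its windows held the motif. CCAAT was present for all 14 sterol enzymes with an entry, for 1 of 4 fatty acid enzymes (Fasn) and for 3 of 4 genes of the SREBP system, against 37.5% of all 27025 genes in the table. GGGCGG was present for 13 of 14 sterol enzymes, 1 of 4 fatty acid enzymes (Acly) and 4 of 4 SREBP genes, against 35.4% of all genes. TCACNCCAC was found for Hmgcs1 alone, and for 1.22% of all genes. By single windows the shares were 33.8%, 32.7% and 1.05% of 32851. These counts describe letters in a window and say nothing about binding.

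The targeted gene was low in both hairpin groups: the Apela log2 level was 11.40, 11.31 and 11.19 in shLuc, 9.76, 9.68 and 9.65 in shApela_1, and 9.79, 9.79 and 9.56 in shApela_2. All 10 embryonic stem cell markers, Pou5f1, Nanog and Sox2 among them, measured between 10.09 and 12.82 on average, above the median of the table (7.06). Of the markers of other cell types, 6 of 9 for feeder fibroblasts, 4 of 10 for endoderm, 4 of 8 for trophectoderm and 5 of 7 for neuroectoderm lay above it. In the fibroblast list Vim measured 11.87, and Col1a1, Col1a2, Col3a1, Thy1 and Pdgfrb lay between 7.12 and 7.96. Postn, Lum and Dcn lay between 4.61 and 5.63. The summed level of the 8 trophectoderm markers was 57.70 to 60.02 in shApela_1, against 59.9 to 61.1 in shLuc and 59.8 to 60.8 in shApela_2, with Krt8 at a mean of 9.38 against 9.88 and 9.70. Other lists held such markers too. Arrays of shApela_1 did not overlap shLuc for 4 of 10 endoderm, 2 of 8 trophectoderm and 2 of 7 neuroectoderm markers. The same held for 1 of 9 fibroblast and 0 of 10 stem cell markers, beside 13.7% of all genes. The part of these markers in the differences seen with shApela_1 was not tested. The third shApela_2 array stood apart, with a median of 7.12 against 7.03 to 7.07 and an interquartile range of 3.29 against 3.50 to 3.59. The class medians with shApela_2, and the differences of Cyp51, Scd1, Insig1 and Stard4, are given with and without it. In bulk RNA, fewer cells with a transcript and less of it per cell cannot be told apart.

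No member passed the test in any comparison of the main model, which did not pair arrays by replicate number. In limma, with Benjamini-Hochberg adjustment over all 19938 genes and a threshold of 0.05, the count was 0 of 28 with shApela_1 against shLuc, where 0.336% of all genes passed, and 0 with shApela_2 (0.015% of all genes). It was also 0 for the mean of both hairpins against shLuc (0.015% of all genes) and 0 for shApela_2 against shApela_1 (0.948%). At an unadjusted p under 0.05 the counts were 4, 1, 2 and 4 of 28, beside 7.69%, 5.77%, 4.58% and 12.9% of all genes. The differences were small as well as uncalled. With shApela_1 the 95% intervals of all 28 members lay inside a 1.5-fold change in either direction (0.58 on the log2 scale), beside 19565 of all 19938 genes. With shApela_2 those of 27 members did, beside 19607 of all genes. The exception was Cyp51, with an interval from -0.64 to 0.18. Its difference with shApela_2 was -0.23 on all arrays and -0.00046 without the third shApela_2 array.

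**Figure D1:**
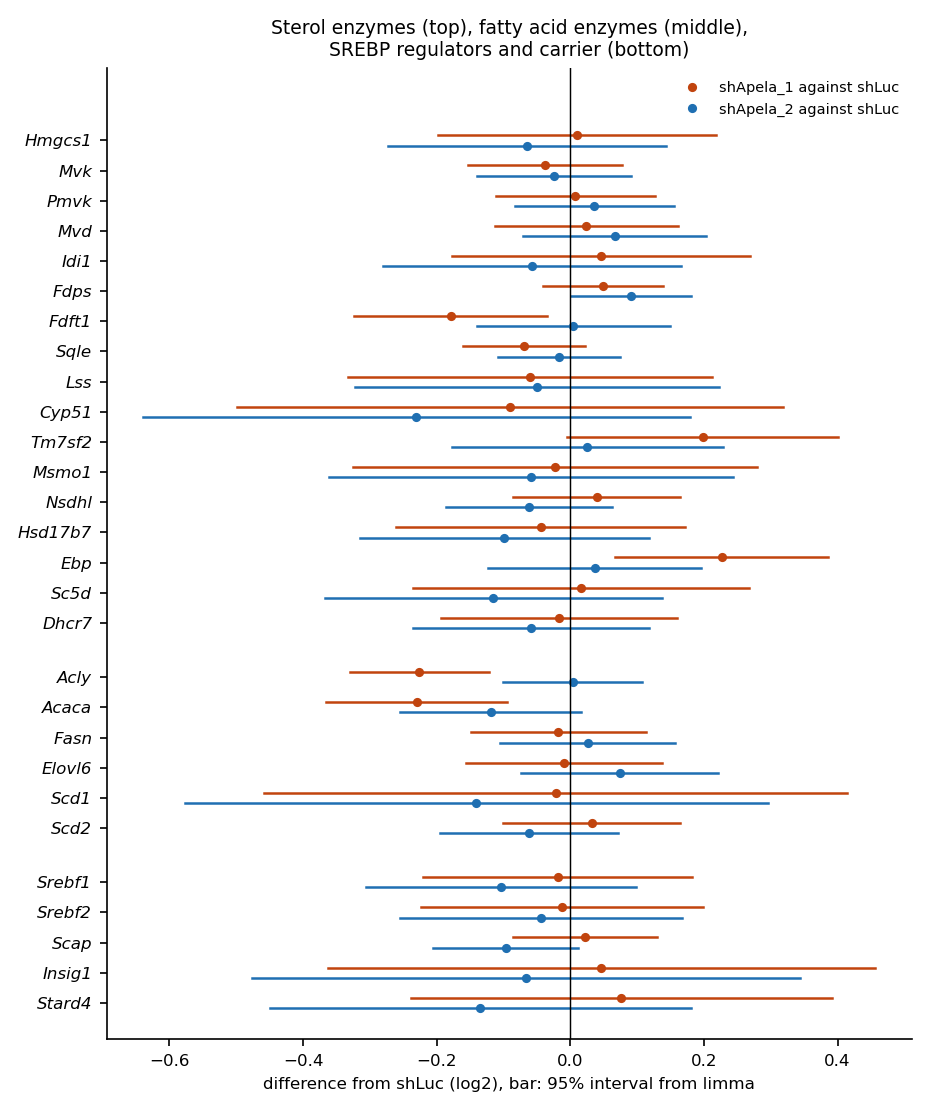
Difference of each member from shLuc (log2, horizontal axis) with shApela_1 (orange) and shApela_2 (blue), where points are differences of group means over 3 arrays and bars are 95% intervals from limma. Most bars cross 0, those of Acly and Acaca with shApela_1 end at -0.12 and -0.10, and the widest belong to Scd1, Insig1 and Cyp51.

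Among the sterol enzymes, the first segment of the pathway runs from acetoacetyl-CoA to farnesyl diphosphate. Its 6 members had median differences of 0.02 with shApela_1 and 0.0059 with shApela_2, and the largest in size was that of Fdps with shApela_2. Hmgcs1, which condenses acetyl-CoA units into HMG-CoA, measured 10.83, 10.76 and 10.66 in shLuc, 10.90, 10.74 and 10.64 in shApela_1, and 10.80, 10.74 and 10.51 in shApela_2. Its groups overlapped fully, with differences of 0.01 (SE 0.09, limma adjusted p = 1) and -0.06 (SE 0.09, limma adjusted p = 0.81). Mvk phosphorylates mevalonate, Pmvk phosphorylates the product of Mvk, Mvd forms isopentenyl diphosphate, and Idi1 isomerizes it. These enzymes differed from shLuc by between -0.06 and 0.07 with either hairpin.

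Fdps, the synthase of farnesyl diphosphate, had the smallest p of the sterol enzymes with shApela_2. It measured 10.79, 10.79 and 10.73 in shLuc, 10.87, 10.80 and 10.78 in shApela_1, and 10.88, 10.84 and 10.86 in shApela_2. The shApela_2 arrays lay above all shLuc arrays, by 0.09 on average (SE 0.04, limma adjusted p = 0.68), while those of shApela_1 overlapped the control (0.05).

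At the step into squalene, no enzyme passed the test. Fdft1, squalene synthase, which commits farnesyl diphosphate to sterols, measured 11.87, 11.72 and 11.72 in shLuc, 11.69, 11.59 and 11.49 in shApela_1, and 11.82, 11.76 and 11.73 in shApela_2. All shApela_1 arrays lay below the other 6, and shApela_2 overlapped shLuc. The difference from shLuc was -0.18 with shApela_1 (SE 0.06, limma adjusted p = 0.474) and 0.0043 with shApela_2 (adjusted p = 0.986), and the hairpins differed from each other by 0.18 (SE 0.06, adjusted p = 0.275). Its second probe set gave -0.23, -0.04 and 0.19 for the same comparisons. Sqle, squalene epoxidase, and Lss, lanosterol synthase, differed from shLuc by -0.07 and -0.06 with shApela_1 and by -0.02 and -0.05 with shApela_2.

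From lanosterol to cholesterol, 8 enzymes were measured. Relative to shLuc their differences ran from -0.09 to 0.23 with shApela_1 and from -0.23 to 0.04 with shApela_2, with medians of -1e-05 and -0.06. Ebp, the isomerase that shifts the sterol ring double bond, measured 9.12, 9.13 and 9.32 in shLuc, 9.39, 9.34 and 9.53 in shApela_1, and 9.23, 9.17 and 9.29 in shApela_2. All shApela_1 arrays lay above the other 6, with a difference of 0.23 from shLuc (SE 0.07, limma adjusted p = 0.364) and of -0.19 for shApela_2 against shApela_1 (SE 0.07, adjusted p = 0.305). With shApela_2 Ebp differed from shLuc by 0.04 (95% interval from -0.12 to 0.20).

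Tm7sf2, a sterol reductase, had the next smallest p of this segment with shApela_1: 8.28, 8.31 and 8.06 in shLuc, 8.52, 8.48 and 8.25 in shApela_1, and 8.29, 8.29 and 8.15 in shApela_2. Its groups overlapped, because the third shApela_1 array lay within the control range, and the difference of 0.20 (SE 0.09) had an adjusted p of 0.664 in limma. With only the arrays numbered 1 and 2, an alternative chosen after the values were seen, the hairpins differed in Tm7sf2 by -0.21 (adjusted p = 0.0414), against -0.17 on all arrays (adjusted p = 0.452).

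Over all 17 sterol enzymes the median difference was 0.0075 with shApela_1, with 9 above and 8 below shLuc, and -0.05 with shApela_2, with 6 above and 11 below. Over all genes the medians were 0.0062 and 0.02, and 54.5% and 57.5% of genes lay above shLuc. Among the 7966 genes at least as bright as the dimmest member (8.01 on average) they were 0.01 and -0.03, with 56.2% and 31.8% above. Single arrays moved these medians, in some fits across 0. With shApela_1 the median was -0.06 without the first shApela_1 array, -0.03 without the third shLuc array and 0.04 without the third shApela_1 array. With shApela_2 it was 0.02 without the third shApela_2 array, -0.11 without the first and -0.02 without the first or the second shLuc array.

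Among the fatty acid enzymes, Acly and Acaca had the smallest p of all members with shApela_1 against shLuc. Acly, ATP citrate lyase, which makes the cytosolic acetyl-CoA for both branches, measured 10.92, 11.001 and 10.99 in shLuc, 10.69, 10.73 and 10.81 in shApela_1, and 10.98, 11.01 and 10.92 in shApela_2. The shApela_1 arrays lay below all 6 others, and the shApela_2 arrays overlapped the control. The difference with shApela_1 was -0.23 (SE 0.05, limma adjusted p = 0.116), which left 85.5% of the control signal, against 0.0035 with shApela_2 (95% interval from -0.10 to 0.11).

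The hairpins differed from each other in Acly by 0.23 (SE 0.05, limma adjusted p = 0.0653). With replicates entered as blocks this value crossed the threshold (adjusted p = 0.0467), as it did with array weights (0.28, adjusted p = 0.0016), with only the arrays numbered 1 and 2 (0.29, adjusted p = 0.0326) and without the third shApela_2 array (0.26, adjusted p = 0.0467). It also did so after a second quantile normalization (0.25, adjusted p = 0.0172), as did the difference of shApela_1 from shLuc (-0.22, adjusted p = 0.042). Over its 18 alternatives the adjusted p of the hairpin difference ran from 0.0016 to 0.251, with 5 under the threshold and the same sign in all 18. In several of them, such as the fit with blocks, the difference is unchanged by design and only its p can move.

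Acaca, acetyl-CoA carboxylase, which makes malonyl-CoA in the committed step of fatty acid synthesis, measured 9.98, 9.97 and 10.08 in shLuc, 9.71, 9.73 and 9.90 in shApela_1, and 9.92, 9.90 and 9.85 in shApela_2. All 6 hairpin arrays lay below the 3 control arrays, and the hairpin groups overlapped each other. Such separation of all 6 from shLuc, upward or downward, held for 1 of 28 members, beside 2.17% of all genes. The differences were -0.23 (SE 0.06, limma adjusted p = 0.222) and -0.12 (SE 0.06, adjusted p = 0.68), and -0.17 for the mean of both hairpins (SE 0.05, adjusted p = 0.876). These comparisons share the shLuc arrays. The second, dimmer probe set of Acaca gave -0.22 and -0.23, so the probe sets disagreed on whether the hairpins differed (-0.01 against 0.11).

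The enzymes after malonyl-CoA did not pass the test. Fasn, the fatty acid synthase that builds palmitate, measured 11.11, 11.02 and 11.19 in shLuc, 11.06, 11.07 and 11.13 in shApela_1, and 11.12, 11.05 and 11.22 in shApela_2. Its groups overlapped, with differences of -0.02 (95% interval from -0.15 to 0.11) and 0.03 (from -0.11 to 0.16). Elovl6 and Scd2 differed from shLuc by between -0.06 and 0.07.

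Scd1, a stearoyl-CoA desaturase, had the widest spread of all members, with an SD within groups of 0.28. It measured 10.60, 10.80 and 10.27 in shLuc, 10.61, 10.59 and 10.40 in shApela_1, and 10.58, 10.69 and 9.97 in shApela_2. Its groups overlapped, with differences from shLuc of -0.02 and -0.14 (SE 0.19 for each), and the third array was the lowest in each group. Without the third shApela_2 array, Scd1 differed from shLuc by 0.08 with shApela_2. The 6 enzymes had median differences of -0.02 and -0.03, with 5 and 3 below shLuc. Without the third shLuc array the median with shApela_1 was -0.10, and without the third shApela_2 array that with shApela_2 was 0.01.

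**Figure D2:**
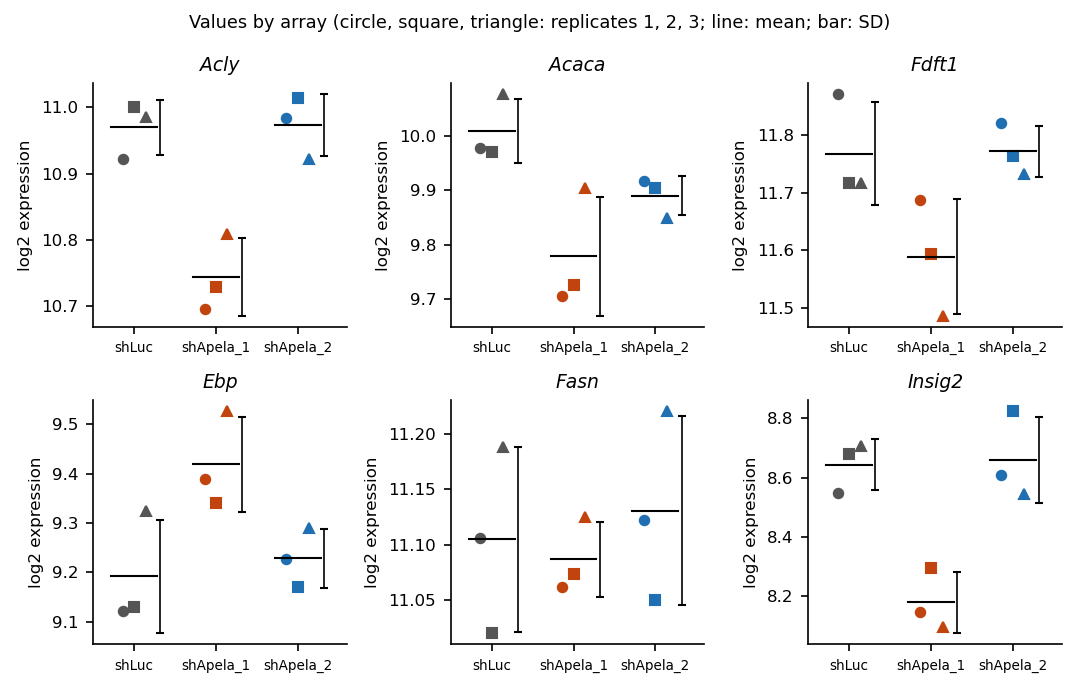
Log2 expression of Acly, Acaca, Fdft1, Ebp, Fasn and Insig2 on each array (circle, square and triangle for replicates 1, 2 and 3), with the group mean as a line and the SD as a bar (n = 3); the vertical axes differ and do not start at 0. The 3 shApela_1 arrays lie below all shLuc arrays for Acly, Acaca, Fdft1 and Insig2 and above them for Ebp, while Fasn overlaps.

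The transcription factors themselves did not pass the test. Srebf2 measured 10.74, 10.83 and 10.59 in shLuc, 10.81, 10.74 and 10.57 in shApela_1, and 10.77, 10.74 and 10.51 in shApela_2, with differences of -0.01 and -0.04 (SE 0.09 for each). Srebf1 measured 8.92, 9.08 and 8.78 in shLuc, 8.91, 8.95 and 8.86 in shApela_1, and 8.89, 8.92 and 8.66 in shApela_2, with differences of -0.02 and -0.10 (SE 0.09 for each). The 95% interval of Srebf1 with shApela_2 ran from -0.31 to 0.10, and the difference was below 0 in all 18 alternatives (-0.18 to -0.02). Several of these alternatives, such as the replicate block, leave the difference unchanged by design, so their sign could not differ. Both transcription factors had overlapping groups and their lowest value on the third array of every group.

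Scap, the escort of the precursors, measured 9.31, 9.33 and 9.40 in shLuc, 9.37, 9.36 and 9.39 in shApela_1, and 9.26, 9.17 and 9.32 in shApela_2. The shApela_2 arrays lay below those of shApela_1 (-0.12, SE 0.05, limma adjusted p = 0.338) and overlapped shLuc (-0.10, adjusted p = 0.68). Insig1 measured 11.16, 11.26 and 10.88 in shLuc, 11.37, 11.16 and 10.90 in shApela_1, and 11.22, 11.23 and 10.65 in shApela_2. Its SD within groups, 0.26, exceeded its differences from shLuc, 0.05 and -0.07 (SE 0.18 for each). Without the third shApela_2 array, Insig1 differed from shLuc by 0.13 with shApela_2.

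Stard4, which moves cholesterol between membranes, measured 8.66, 8.76 and 8.58 in shLuc, 8.88, 8.72 and 8.62 in shApela_1, and 8.60, 8.80 and 8.20 in shApela_2, and its groups overlapped (0.08 and -0.13, SE 0.14 for each). Without the third shApela_2 array, Stard4 differed from shLuc by 0.03 with shApela_2. The median of the 5 genes was 0.02 with shApela_1 and -0.10 with shApela_2. The latter was 0.03 without the third shApela_2 array, -0.18 without the third shLuc array, -0.15 without the second shApela_2 array and -0.03 without the second shLuc array.

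Groups that did not overlap on any array were found for 4 of 28 members with shApela_1 (Fdft1, Acly and Acaca lower, Ebp higher), beside 13.7% of all genes. With shApela_2 there were 2 (Fdps higher, Acaca lower), beside 10.3% of all genes. Between the hairpins there were 4 (Fdft1 and Acly higher in shApela_2, Ebp and Scap lower), beside 17.6%. As shares of the members these were 14.3%, 7.14% and 14.3%, near the share over all genes or under it.

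The larger variation among the members ran across arrays within groups. In 14 of 28 members the array numbered 3 was the lowest of its group in all 3 groups, against 11.1% of all genes and 18.9% of the 7966 genes at least as bright as the dimmest member. This pattern was noticed in these values and is given without a test. The count was 16 after a second quantile normalization, 13 with centred array medians and 15 with the mean of each gene's probe sets. Leaving aside shApela_2, with the array that stood apart, 15 members were lowest on the third array in both shLuc and shApela_1, against 19.5% of all genes. The labels do not say whether arrays of equal number shared a culture or a day, and the part of such a factor was not tested.

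The pattern differed among the classes in its counts. It held for 6 of 8 enzymes from lanosterol to cholesterol (Cyp51, Tm7sf2, Msmo1, Nsdhl, Sc5d and Dhcr7), for 1 of 3 in the squalene segment (Lss) and for 1 of 6 before it (Hmgcs1). It held for 4 of 5 genes of the SREBP system, all but Scap, and for 2 of 6 fatty acid enzymes (Elovl6 and Scd1). Cyp51, lanosterol demethylase, measured 9.40, 9.39 and 9.15 in shLuc, 9.38, 9.21 and 9.07 in shApela_1, and 9.35, 9.27 and 8.62 in shApela_2. The third array lay below the mean of the other 2 for Cyp51, by 0.25, 0.22 and 0.69 in the order of groups.

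Msmo1, the sterol C4-methyl oxidase, measured 10.75, 10.77 and 10.49 in shLuc, 10.84, 10.62 and 10.48 in shApela_1, and 10.75, 10.74 and 10.35 in shApela_2. For Insig1 the third array was lower than the mean of the other 2 by 0.33, 0.36 and 0.58. Ebp, Fasn and Scap went the other way and were higher on the third array of every group than on the mean of the others, by 0.09 to 0.20, 0.06 to 0.13 and 0.02 to 0.11. The medians of this difference over the 28 members were -0.07, -0.13 and -0.19 in shLuc, shApela_1 and shApela_2, and over all genes 0.0093, -0.0048 and 0.04. Over the 7966 genes at least as bright as the dimmest member they were 0.03, 0.03 and -0.06.

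Other markers on the third arrays were as follows. Of the embryonic stem cell markers 4 of 10 were lowest there in all 3 groups, with medians of -0.01, -0.03 and -0.05 for the difference from the other arrays. Of the markers of other cell types 2 of 9 for feeder fibroblasts, 0 of 10 for endoderm, 2 of 8 for trophectoderm and 0 of 7 for neuroectoderm were lowest there. In shApela_2 the medians of these lists were 0.19 for feeder fibroblasts, 0.12 for endoderm, 0.0059 for trophectoderm and 0.12 for neuroectoderm, where the members stood at -0.19. The 7966 genes at least as bright as the dimmest member stood at -0.06 there. In brightness these lists reached lower than the members: their dimmest markers averaged 4.61 to 5.63, against 8.01 for the dimmest member. In shLuc and shApela_1 the medians of these lists ran from -0.04 to 0.04 and from -0.18 to 0.04. The part of these markers and of brightness in the pattern was not tested. The summed level of the stem cell markers ran from 117.2 to 117.5 in shLuc, from 117.0 to 117.2 in shApela_1 and from 116.7 to 117.7 in shApela_2.

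**Figure D3:**
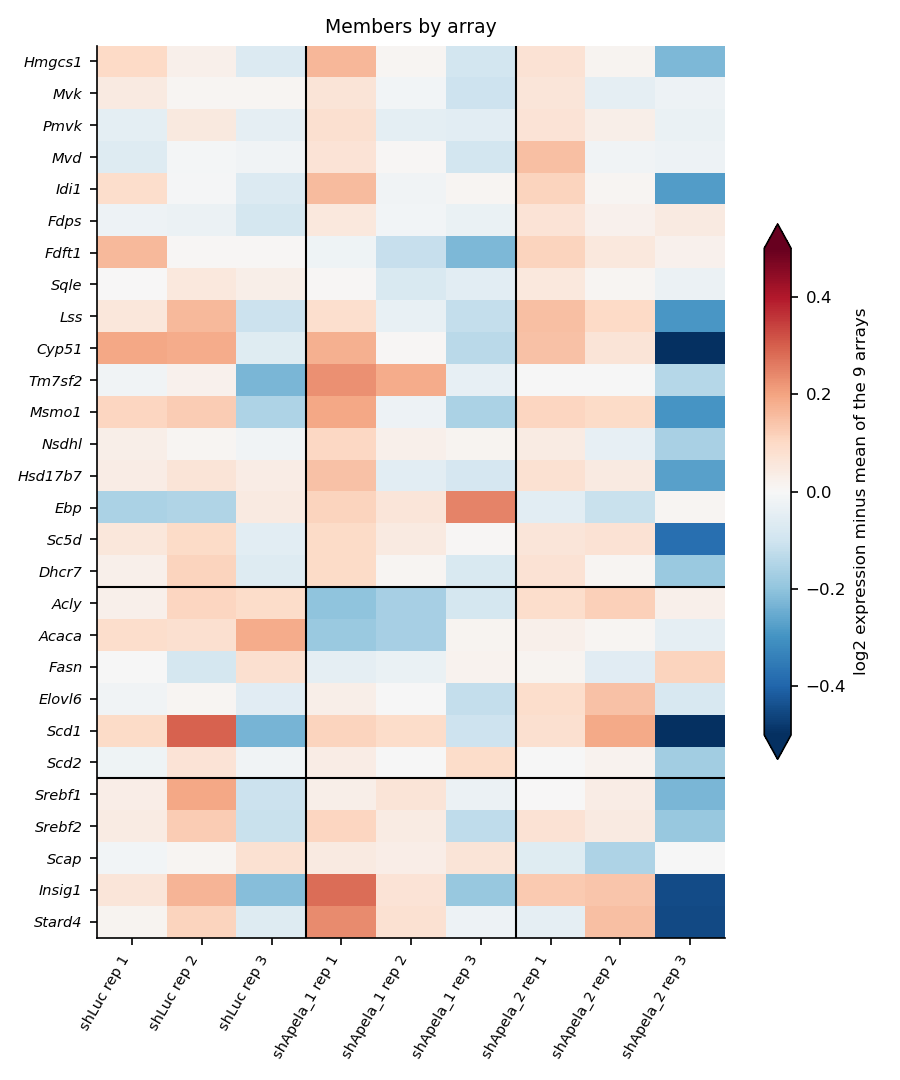
Log2 expression of the 28 members on the 9 arrays, as the difference from each gene's mean over all arrays (red above, blue below; colours end at 0.5 in either direction); horizontal lines part sterol enzymes, fatty acid enzymes and the SREBP system. The columns of replicate 3 are blue for most sterol enzymes and for Insig1, Stard4 and Scd1, most of all in shApela_2, while Acly is blue in the 3 shApela_1 columns.

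**Figure D4:**
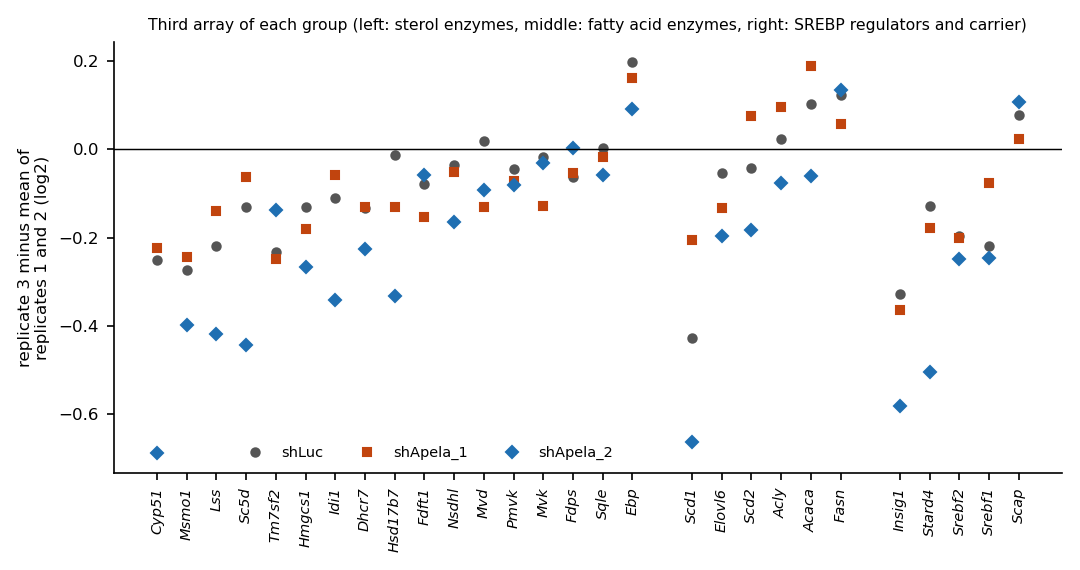
Replicate 3 minus the mean of replicates 1 and 2 (log2, vertical axis) for each member in each group. Cyp51, Scd1 and Insig1 reach -0.69, -0.66 and -0.58 in shApela_2, and Ebp, Fasn and Scap lie above 0 in all 3 groups.

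Further genes of the pathways were read from lists with 44 measured members: 9 of sterol uptake, export and synthesis, 8 of SREBP processing and 27 of fatty acid synthesis, elongation and desaturation. Against shLuc, 0 of 44 passed in limma with either hairpin (10 and 3 at an unadjusted p under 0.05, beside 7.69% and 5.77% of all genes), and 0 with the mean of both (5 unadjusted, beside 4.58%). Between the hairpins 2 passed, 1 in SREBP processing and 1 among fatty acid genes, beside 0.948% of all genes, with 10 at an unadjusted p under 0.05, beside 12.9%.

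Insig2, which like Insig1 retains Scap in the endoplasmic reticulum, was the gene of SREBP processing that passed. It measured 8.55, 8.68 and 8.71 in shLuc, 8.14, 8.29 and 8.10 in shApela_1, and 8.61, 8.82 and 8.55 in shApela_2. The shApela_1 arrays lay below all 6 others, and shApela_2 was higher than shApela_1 by 0.48 (SE 0.08, limma adjusted p = 0.0421, and 0.0129 with replicates as blocks). Against shLuc the difference with shApela_1 came to -0.47 (SE 0.08, adjusted p = 0.0754, and 0.0271 with blocks), and with shApela_2 to 0.02 (95% interval from -0.17 to 0.21). The call between the hairpins ended with centred array medians (adjusted p = 0.0628), with only the compared arrays (0.144), with only the arrays numbered 1 and 2 (0.0661) and in 8 of the 9 fits that left out 1 array (0.0663 to 0.183), the exception being replicate 3 of shApela_2 (0.0396).

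Mid1ip1, a protein that promotes polymerization of acetyl-CoA carboxylase, was lower in shApela_2 than in shApela_1 by 0.35 (SE 0.06, limma adjusted p = 0.0496). It measured 8.16, 8.23 and 8.26 in shLuc, 8.57, 8.42 and 8.42 in shApela_1, and 8.20, 8.14 and 8.003 in shApela_2. The shApela_1 arrays lay above all others. Against shLuc the differences were 0.25 (adjusted p = 0.222) and -0.10 (adjusted p = 0.68). Its second, dimmer probe set went the other way between the hairpins (0.12), and the mean of both probe sets gave -0.12 (adjusted p = 0.28). The call also ended with an intensity trend (adjusted p = 0.0693), with centred array medians (0.0536), with only the compared arrays (0.162), with only the arrays numbered 1 and 2 (0.0675) and in each of the 9 fits that left out 1 array (0.0668 to 0.188).

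Npc1, which exports cholesterol from lysosomes, led the further sterol genes. It measured 9.98, 10.16 and 9.96 in shLuc, 9.75, 9.78 and 9.67 in shApela_1, and 10.12, 10.22 and 9.97 in shApela_2. The shApela_1 arrays again lay below all others (-0.30 against shLuc, SE 0.07, limma adjusted p = 0.197, and 0.0412 with the replicate block), and the hairpins differed by 0.37 (SE 0.07, adjusted p = 0.0668, and 0.0121 with the block). Beside the block, the hairpin difference passed with dim genes left out (limma adjusted p = 0.0458) and after a second quantile normalization (0.0219). It also passed with array weights (0.0018) and without the third shApela_2 array (0.0351), and under no other alternative. The difference from shLuc also passed with array weights (0.0255). Abca1, a cholesterol exporter, followed, at 0.26 with shApela_1 (SE 0.08, adjusted p = 0.39) and -0.24 between the hairpins (adjusted p = 0.277). Ube2g2, a conjugating enzyme of sterol-driven degradation, differed by 0.15 with shApela_1 (adjusted p = 0.602), and Acsl4, an acyl-CoA synthetase, by -0.14 (adjusted p = 0.408). With the block 2 of 44 genes passed with shApela_1, Npc1 and Insig2, beside 0.953% of all genes in that fit. Between the hairpins 6 passed with it, beside 3.28% of all genes: Npc1, Insig2, Rnf145, Ube2g2, Elovl7 and Mid1ip1.

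With shApela_2 the leads by p were Mylip, which marks the low-density lipoprotein receptor for degradation (0.06, adjusted p = 0.726), Npc1 (0.07, adjusted p = 0.756), Fbxw7, a ubiquitin ligase subunit that targets mature SREBPs (-0.16, adjusted p = 0.68), Ube2g2 (-0.14, adjusted p = 0.68), Me1, malic enzyme (-0.10, adjusted p = 0.68) and Slc25a1, the citrate carrier (-0.10, adjusted p = 0.68), all in limma. For the mean of both hairpins they were Mylip (0.11), Abca1 (0.14), Insig2 (-0.23), Fbxw7 (-0.14), Hsd17b12, a ketoreductase of fatty acid elongation (-0.11), and Acsl4 (-0.09), with limma adjusted p from 0.915 to 0.952. The medians of the 3 lists were 0.05, 0.07 and -0.01 with shApela_1 and 0.02, -0.06 and -0.02 with shApela_2.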

How the data were processed

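Expression was measured on 9 Affymetrix arrays, 3 in each of 3 groups, with groups and replicate numbers taken from the sample titles. The authors deposited log2 values per probe set made with RMA in Partek 6.6, per the submitters' processing notes; the sources used here give no settings and no log base, and values between 3.86 and 13.48 were taken as base 2. RMA brings the distributions of the arrays close together, so a shift of all genes would be largely removed. The deposited distributions were not identical, with medians from 7.03 to 7.12 and interquartile ranges from 3.29 to 3.59. Of 28853 probe sets, 21775 had 1 gene symbol in the platform annotation, 1578 several and 5500 none. For each of 19938 genes the brightest probe set was kept.

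The test was limma 3.58.1 under R 4.3.3 (lmFit and eBayes, two-sided). A single model held all 9 arrays (residual degrees of freedom 6, prior 2.72), and p-values were adjusted by Benjamini-Hochberg over all genes (threshold 0.05). The code was checked on simulated data. Every adjusted p comes from limma. The members, the further pathway lists and the markers were chosen with earlier results of these data known. All members with a probe set are described, and of the further lists those past the threshold or the 2 with the smallest p. Insig1, Cyp51, Msmo1 and Scd1 were given array by array after their values were seen.

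Replicate numbers were checked by the correlation of deviations from the group means across genes. Between shLuc and shApela_1 they were 0.44, 0.40 and 0.68, and between the hairpin groups 0.18, 0.21 and 0.21. No label says that these numbers pair arrays, so the main model held no block for them. A fit with the replicate number as a block was run as an alternative. Between shLuc and shApela_2 the values -0.01, 0.67 and 0.47 did not meet the rule of 0.1 in every pair. The blocked adjusted p is given for Acly, Insig2 and Npc1. Rnf145, Ube2g2 and Elovl7, whose calls between the hairpins also changed with the block, are only named. The number of arrays limits the precision.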

Additional observations from a re-analysis of the deposited data

Results flagged for a closer look

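Insig2 and Mid1ip1 differed between the hairpins by the direct test of shApela_2 against shApela_1 in limma. For Insig2 the difference was 0.48 (adjusted p = 0.0421), and it passed under 7 of 18 alternatives, with values from 0.40 to 0.54. For Mid1ip1 it was -0.35 (adjusted p = 0.0496), and it passed under 4 of 18 alternatives, with values from -0.40 to -0.12.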

How the results depend on the processing

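Counts of members past the threshold stayed at 0 under all alternatives for shApela_2 and for the mean of both hairpins against shLuc. Under the 18 alternatives of a comparison (17 for the mean of both hairpins), 14 of 1988 member values passed, and 1812 kept the sign of the reported value. With shApela_1 there was 1 member after a second quantile normalization (Acly), 2 with array weights (Acly and Acaca) and 1 with only the arrays numbered 1 and 2 (Acaca). Between the hairpins there was 1 after a second quantile normalization, 1 with the replicate number as a block and from 0 to 1 without single arrays (Acly each time), 4 with array weights (Ebp, Acly, Acaca and Scap), and 3 with only the arrays numbered 1 and 2 (Tm7sf2, Acly and Acaca). That last alternative was chosen after seeing the data. Part of the 1812 kept signs was fixed in advance. The intensity trend, the filter on dim genes, the replicate block and the fit of only the compared arrays leave the difference itself unchanged. So does leaving out an array of a group not compared. The count of kept signs is therefore no measure of stability.

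Over all genes, the 67 calls with shApela_1 became 37 with an intensity trend and robust prior, 31 with centred medians, 688 with array weights, 190 with the replicate block, 44 with only the compared arrays, 249 with the arrays numbered 1 and 2, and 3 to 146 without single arrays. The 3 calls with shApela_2 became 7 after a second quantile normalization, 23 with array weights, 8 with the block, and 2 to 6 without single arrays. The 3 calls for the mean of both hairpins became 7 after a second quantile normalization, 31 with array weights, and 1 to 6 without single arrays. The 189 calls between the hairpins became 1446 with array weights, 653 with the block, 28 with only the compared arrays, 434 with the arrays numbered 1 and 2, and 19 to 222 without single arrays. The cause was not tested.

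Class medians of the 6 fatty acid enzymes and of the 5 SREBP genes moved by more than their spread between arrays in some fits. For fatty acid enzymes the median without single arrays ran from -0.096 to -0.012 with shApela_1, from -0.057 to 0.014 with shApela_2, from -0.077 to -0.0016 for the mean of both, and from 0.051 to 0.12 between the hairpins. With centred medians it was -0.070 with shApela_2 and 0.025 between the hairpins, and with array weights it was 0.011 with shApela_2 and -0.0073 for the mean of both. For the SREBP system the median without single arrays ran from -0.062 to 0.057 with shApela_1, from -0.18 to 0.033 with shApela_2, from -0.094 to 0.016 for the mean of both, and from -0.13 to -0.0022 between the hairpins. With array weights it was 0.0058 with shApela_2 and -0.022 between the hairpins, and with the arrays numbered 1 and 2 it was -0.026 and -0.040. The replicate block changed no other call of a member than that of Acly.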
